A study of Nothobranchius furzeri and Aphyosemion australe and Iconisemion striatum with 145 samples.

Results

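The myogenic regulatory factors are 4 basic helix-loop-helix (bHLH) transcription factors, encoded by *myf5*, *myod1*, *myog* and *myf6*. They were taken by name from the gene table of the African turquoise killifish *Nothobranchius furzeri*, and all 4 of 4 were found among its 25122 genes. The samples were 4 pools of 8 to 10 embryo bodies at the pre-diapause stage, which the labels place at 15 to 22 somites with Kupffer's vesicle present. Chorion, enveloping layer and yolk were dissected away. No mutation, transgene or treatment is given for these embryos, which came from first clutches of young parents and were mostly expected to skip diapause. Each pool gave 1 RNA-seq library. These libraries hold 1 stage and 1 group, so the genes were compared with each other and between pools, but not between conditions. The lyretail and red-striped killifish libraries of the series were counted on features without gene symbols and were not used here. Its libraries of knockout, control and wild-type turquoise killifish embryos, in development or in diapause, were not analysed here.

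In vertebrate embryos the paraxial mesoderm is divided into somites, and part of each somite becomes skeletal muscle. Myf5 and Myod1 commit cells to the muscle lineage, Myogenin (*myog*) then drives their differentiation into fibres, and Myf6, also called Mrf4, acts in differentiation and, in the mouse, partly in commitment. Each factor pairs with a broadly expressed bHLH protein of the E protein class and binds a short DNA motif, the E-box. In zebrafish, *myf5* and *myod1* are already on in the presomitic and adaxial cells, *myog* follows in the forming somites and *myf6* comes later in the fibres.

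Between 25985703 and 41191533 reads were counted per library. Levels are given as CPM, counts scaled to a library of 1000000 reads. All library pairs differed by more than counting noise, with a chi-square per degree of freedom of at least 82.9. The libraries were not equally far apart. Over 16034 genes with at least 10 counts in every library, the SD of the log2 difference in CPM ranged from 0.51 between libraries 1 and 3 to 0.95 between libraries 2 and 3, and library 2 was in the pairs with the 3 highest values. No batch is given in the labels. The pools are separate samples by their labels, and nothing states whether they came from separate parents, so the spread between them may be partly technical.

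Reads of *myf5* were the most numerous of the 4 factors, those of *myod1* and *myog* were close to each other, and those of *myf6* were the fewest. *myf5*, a commitment factor, had 62.2, 98.6, 59.8 and 94.3 CPM in libraries 1 to 4. It was lower in libraries 1 and 3 than in libraries 2 and 4, and its mean was 78.7 ± 20.6 CPM (SD, n = 4). The counts behind it were 1616 to 4061 per library. *myod1*, the other commitment factor, had 23.6, 33.6, 16.5 and 28.0 CPM. Libraries 2 and 4 were again the higher ones, and the mean was 25.4 ± 7.22 CPM (SD, n = 4), from 559 to 1383 counts. *myog*, the differentiation factor, had 21.7, 21.7, 16.8 and 21.4 CPM. The values of libraries 1, 2 and 4 lay within 1 CPM of each other and library 3 was below them, with a mean of 20.4 ± 2.40 CPM (SD, n = 4), from 565 to 894 counts. *myf6* had 2.62, 1.41, 1.95 and 1.17 CPM. It was higher in libraries 1 and 3 than in libraries 2 and 4, the reverse of *myf5* and *myod1*, and its mean was 1.79 ± 0.641 CPM (SD, n = 4). These values rest on 35 to 68 counts, so that the exact 95% Poisson interval in library 4 ran from 0.817 to 1.63 CPM. Such intervals cover counting error only, since amplified reads are not independent molecules. In whole embryo bodies, fewer cells of a type and less RNA per cell cannot be told apart.

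**Figure D1:**
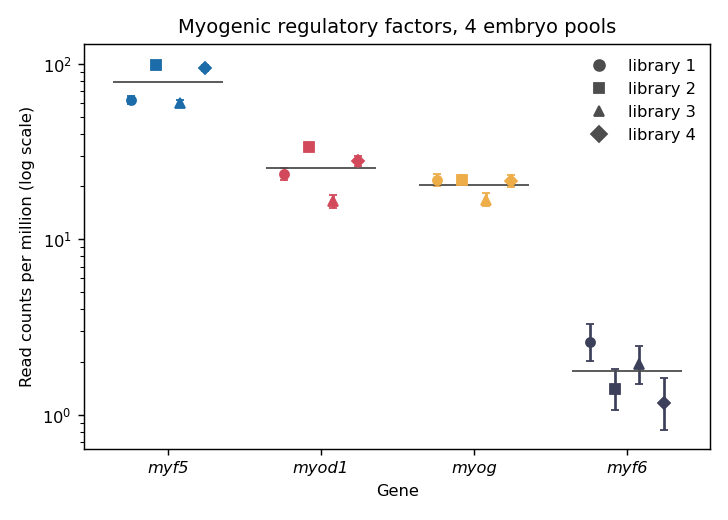
CPM of each factor (log axis) in the 4 African turquoise killifish libraries, 1 symbol per library, with exact 95% Poisson intervals as bars and the mean as a line. The points of *myf5* lie between 59.8 and 98.6 CPM, those of *myod1* and *myog* share one range, and those of *myf6* lie between 1.17 and 2.62 CPM.

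The order of the factors was examined within each library, where library size cancels out. In read counts the order was *myf5*, *myod1*, *myog*, *myf6* in 3 of 4 libraries, and in library 3 *myog* stood ahead of *myod1*. The log2 count ratio of *myf5* to *myod1*, with 1 count added to each gene, was 1.64 ± 0.205 (SD, n = 4), and that of *myf5* to *myog* was 1.92 ± 0.310. The log2 count ratio of *myog* to *myf6* was 3.55 ± 0.570, and that of *myf5* to *myf6* was 5.47 ± 0.860 (SD, n = 4). In these pairs, and in *myod1* against *myf6* with 3.83 ± 0.830, the first gene had more reads in 4 of 4 libraries. An exact permutation test by sign flips, two-sided, gave p = 0.125 for each of these 5 pairs, the smallest value that 4 libraries allow, and an adjusted p of 0.15 by Benjamini-Hochberg over the 6 pairs. The test therefore cannot pass 0.05 for any pair.

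Of the factors next to each other in the order of reads, only *myod1* and *myog* changed places between libraries. Their log2 count ratio was 0.27 ± 0.292 (SD, n = 4), with more *myod1* reads in 3 of 4 libraries (exact sign-flip permutation test, two-sided p = 0.25, adjusted p = 0.25). The count ratio was 1.08 in library 1 (exact 95% binomial interval 0.966 to 1.22) and 0.979 in library 3 (0.870 to 1.10), so that both intervals include equal counts. It was 1.55 in library 2 (1.42 to 1.68) and 1.31 in library 4 (1.18 to 1.45). Reads per gene also depend on transcript length, and no transcript lengths of the annotation counted were used here, so the order is one of reads and not of transcript numbers. At the mean ratio, equal levels per length would need a *myf5* transcript 44.2 times as long as that of *myf6*. It would have to be 3.12 times as long as that of *myod1* and 3.77 times as long as that of *myog*. For *myod1* against *myog*, a length ratio of 1.21 would be enough at the mean ratio, and one of 1.55 in library 2.

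**Figure D2:**
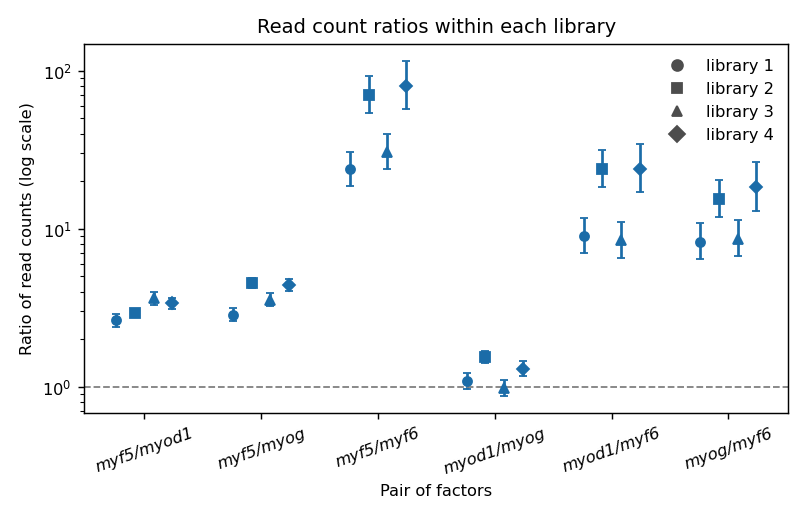
Ratio of the read counts of 2 factors within a library (log axis) for the 6 pairs, 1 symbol per library, with exact 95% binomial intervals as bars. All points lie above the dashed line of equal counts except for *myod1*/*myog*, where the ratio of library 3 is 0.979 and the intervals of libraries 1 and 3 cross the line.

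A change in such a ratio from library to library does not depend on length. The *myf5*/*myod1* ratio moved least, from 2.64 in library 1 to 3.63 in library 3. The ratio of *myf5* to *myog* was 2.86 and 3.55 in libraries 1 and 3, and 4.54 and 4.40 in libraries 2 and 4. The ratio of *myf5* to *myf6* was 23.8 and 30.7 in libraries 1 and 3, and 70.0 and 80.3 in libraries 2 and 4, and there the intervals of the lower libraries (18.6 to 39.9 at the outside) did not reach those of the higher (from 54.0). The pools thus differed in the proportion of *myf6* reads to *myf5* reads by more than these intervals. The intervals take reads as independent, which amplified reads are not, so they are too narrow. Over all genes, every pair of libraries also differed by more than counting noise. How many other pairs of genes show such a gap was not counted.

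Together the 4 factors took 110, 155, 95.04 and 145 CPM in libraries 1 to 4. *myf5* held most of these reads, 56.5% in library 1 and 62.9% to 65.1% in the other 3, with a mean of 62.0% ± 3.798 (SD, n = 4). *myod1* held 17.3% to 21.6%. *myog* held 19.7% and 17.7% in libraries 1 and 3, and 13.98% and 14.8% in libraries 2 and 4. The exact 95% Clopper-Pearson intervals of *myog* in libraries 1 and 3 began at 18.3% and 16.4%, and those of libraries 2 and 4 ended at 14.9% and 15.9%, so that they did not overlap. These intervals, too, take reads as independent. This grouping of libraries was seen in the same data, and how many other genes separate them so was not counted. *myf6* held 2.38% and 2.05% in libraries 1 and 3, and 0.907% and 0.810% in libraries 2 and 4. *myog* and *myf6* thus had a larger share of these reads in libraries 1 and 3, while *myf5* had its lowest share in library 1. The *myod1* share did not group the libraries in this way, with 21.4%, 21.6%, 17.3% and 19.3% in libraries 1 to 4. Shares depend on one another. In CPM, *myog* was not higher in libraries 1 and 3, with 21.7, 21.7, 16.8 and 21.4 in libraries 1 to 4.

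**Figure D3:**
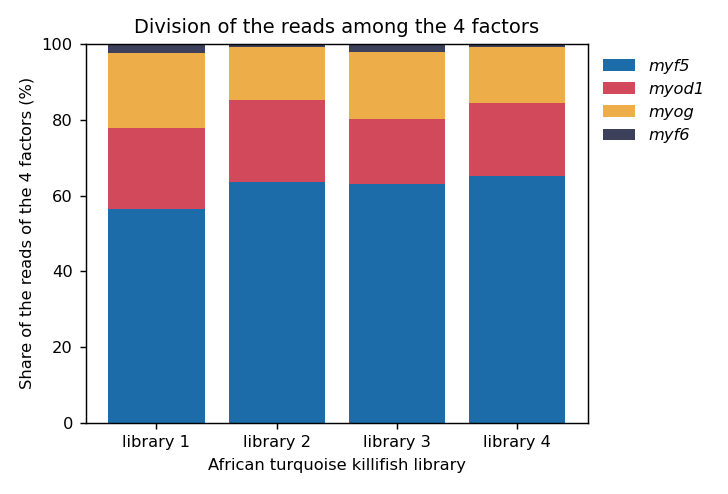
Stacked bars divide the reads of the 4 factors in each library among the factors, in percent. The bars are 56.5% to 65.1% *myf5*, with *myod1* and *myog* as the next segments and a thin *myf6* segment of 0.810% to 2.38%.

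The spread between pools differed among the factors. The coefficient of variation (CV, the SD as a percentage of the mean) of the CPM was 26.1% for *myf5*, 28.4% for *myod1*, 11.8% for *myog* and 35.9% for *myf6*. Counting alone would give 1.95%, 3.44%, 3.87% and 13.3%, so that every factor varied more than its counts. The median CV over the 16034 genes with at least 10 counts in every library was 26.9%. *myf5* and *myod1* lay near this median, with 47.8% and 54.3% of the genes below them. *myog* was among the steadier genes, with 8.27% of genes below it, and *myf6* among the more variable ones, with 71.6% below it. With totals rescaled by edgeR's TMM normalization the CV of *myog* was 6.90%, below which lay 2.46% of genes.

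The order of the pools was next set beside that of all genes. *myf5* and *myod1* were higher in both libraries 2 and 4 than in libraries 1 and 3, as were 27.9% of the genes with at least 10 counts in every library. *myf6* was lower in both, though against library 3 within counting error, as were 21.8% of the genes. Many genes thus shared these orders, and the pattern is not particular to the factors. *myog* followed neither order on table totals, but with TMM or DESeq2 size factors its libraries 2 and 4 were above libraries 1 and 3. With DESeq2 size factors, libraries 1 and 4 were nearly equal, at 20.66 and 20.75 CPM. The shares of all genes with that order were 28% with TMM and 26.4% with DESeq2 size factors. Against the deviations of all these genes from their own means, *myf6* stood at the 94.1 percentile in library 1 and the 3.48 percentile in library 4. *myf5* stood at the 16.3 percentile in library 1 and the 80.6 percentile in library 4, while *myog* stayed between the 34.9 and the 56.0 percentile in all 4. These percentiles do not depend on library scaling.

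**Figure D4:**
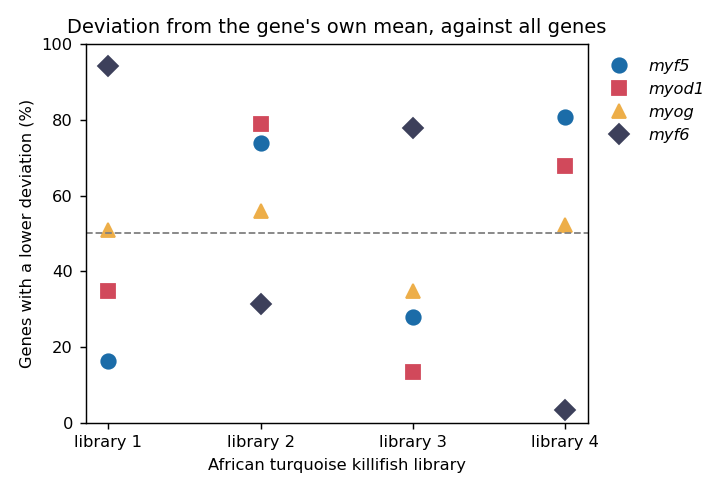
For each factor and library, the percentage of genes whose log2 deviation from their own mean was lower, with a dashed line at 50%. *myog* stays closest to the line (34.9% to 56.0%), whereas *myf6* runs from 94.1% in library 1 to 3.48% in library 4, against *myf5* and *myod1* in each library.

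In RefSeq's annotation of the assembly NfurGRZ-RIMD1, *myf6* and *myf5* are neighbours with no gene annotated between them, as in other vertebrates, while *myog* lies between *ppfia4* and *mdm4* and *myod1* next to *otog*. The neighbours *myf5* and *myf6* were thus the factors with the most and the fewest reads and the opposite order of libraries. On their other sides, *myf5* lies next to the long noncoding RNA gene LOC139070801 and *myf6* next to LOC139066101, of the same type. The strand of these genes and any overlap with the factors were not examined. Whether the counting used strand is not given in the sources used here, so reads from an overlapping antisense transcript would not be told apart. No gene was matched to the name *myod2*, which was not analysed here.

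Genes that act around the factors were read from 9 lists, of which 152 genes were found in the table. Not every listed name had a match, and the 23 presomitic and somitic names, for instance, gave 11 genes. The counts cover genes matched by name only, while the share of all genes includes genes without a name. A gene was counted as expressed when it had at least 1 CPM in each of the 4 libraries. This held for the 4 factors, for 114 of the 152 genes and for 53.7% of all genes of the table. Among genes that act before or above the factors, 9 of 11 presomitic and somitic factors were expressed. *meox1*, a homeobox gene of somite patterning, had 50.8, 97.1, 50.5 and 92.0 CPM, with libraries 2 and 4 above the others. *tcf15*, needed for epithelial somites in the mouse, had 46.1, 84.2, 49.7 and 72.3 CPM in the same order of libraries. *msgn1*, a bHLH gene of the presomitic mesoderm, had 70.6 ± 8.32 CPM (SD, n = 4). *meox2* had 0 to 3 counts per library, where 3 counts amount to 0.0728 to 0.115 CPM.

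Of the premyogenic factors, which include Pax and Lbx genes and their partners, 15 of 19 were expressed. *pax3a*, the name in RefSeq of LOC107384025 and a gene of muscle progenitors and neural crest, had 26.8, 18.7, 26.1 and 26.4 CPM. *lbx1*, a marker of migrating muscle precursors in other vertebrates, had at most 27 counts in a library and none in library 3, but its relatives *lbx2* (LOC107380237) and *lbx1b* (LOC107392589) were expressed, with means of 10.1 and 2.64 CPM. In contrast to *myod1*, *pax3a* was lowest in library 2.

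Of the dimer partners and Mef2 factors, 4 of 8 were expressed, near the share of all genes. *tcf3b* (LOC107384145), an E protein gene, had 49.3, 18.4, 47.4 and 46.0 CPM, so that library 2 had less than the other 3. *tcf12*, another E protein gene, had 2.27, 4.56, 2.80 and 4.53 CPM, higher in libraries 2 and 4. *mef2a*, whose product acts together with the myogenic factors on muscle genes, had 4.50 ± 0.375 CPM (SD, n = 4), and *mef2b* (LOC107396487) had at most 3 counts.

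Of the genes known to restrain the factors, 20 of 22 were expressed. The Id proteins lack a DNA-binding region and take up E proteins, and 3 of their genes had the highest CPM of the list. *id1* had 2063, 3626, 1186 and 1967 CPM, *id3* had 746 ± 229 CPM and *id4* (LOC107378877) had 149 ± 25.7 CPM (SD, n = 4), whereas *id2* had 18.99 CPM on average. *msc*, which encodes the bHLH repressor musculin, had at most 8 counts. These genes are active in many embryonic tissues, and their level in the myotome was not measured.

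Of the positive cofactors, 13 of 16 were expressed. *setd7*, a lysine methyltransferase gene, had 52.4, 174, 35.9 and 83.4 CPM, highest in library 2. The cell surface receptor genes *neo1* and *boc* had the reverse order, with 23.2 and 21.6 CPM in library 2 against at least 54.4 and 41.01 CPM elsewhere. *klhl40*, a gene of the thin filament in later muscle, had at most 10 counts. Of the slow fibre and adaxial genes, 6 of 12 were expressed, also near the share of all genes. *tnnc1a* (LOC107391089), a troponin C gene of slow and cardiac muscle, had 70.0 ± 14.5 CPM (SD, n = 4). The Hedgehog target *gli1* had 23.5 ± 8.44 CPM (SD, n = 4). *en1*, a gene of muscle pioneers in zebrafish, had 6 counts in library 2 and none in the others, while its copy *en1b* (LOC107381049) was expressed, at 4.85, 14.7, 7.54 and 14.4 CPM.

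Of the fusion genes, 10 of 12 were expressed. *jam2* had 26.4 ± 6.01 CPM, *crk* (LOC107397236) 21.8 ± 2.56 CPM and *jam3* 12.9 ± 2.43 CPM (SD, n = 4), and all 3 also act outside muscle. *tmem8c*, which encodes the muscle fusion protein Myomaker and is particular to muscle, had 2, 2, 11 and 10 counts. Of the differentiation genes, 25 of 35 were expressed. *actc1a* (LOC107377808), an actin gene of embryonic and cardiac muscle, had 580, 1460, 338 and 703 CPM, and *actc1* had 344 ± 68.9 CPM. Further genes of this list were named after their values were seen. *chrna1*, a subunit gene of the muscle acetylcholine receptor, had 15.0, 17.2, 15.1 and 13.9 CPM, with fewer reads than *myog* in each library. The other listed subunit genes of this receptor, *chrng*, *chrnb1* and *chrnd*, were not expressed, with means of 0.896, 0.947 and 0.311 CPM. Outside the receptor, more genes of the list were expressed. The actin gene *acta1* had 159.7, 394, 113.9 and 209 CPM and the creatine kinase gene *ckm* 50.7, 186, 38.4 and 94.8 CPM, both highest in library 2. In contrast, *smpx* had 46.1, 15.8, 46.6 and 32.6 CPM, lowest in library 2. Of 28 listed genes with at least 10 counts in every library, 6 were higher in libraries 2 and 4 and 7 were lower. The shares of all such genes were 27.9% and 21.8%. Among the 10 genes of the list that were not expressed, the calcium buffer gene *pvalb* had at most 2 counts and the calcium pump gene *atp2a1* (LOC107376685) at most 8. The 12 of 17 expressed genes of the last list encode ligands and receptors of the myotome's surroundings, such as Sonic hedgehog (*shh*, 12.0 ± 4.54 CPM).

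**Figure D5:**
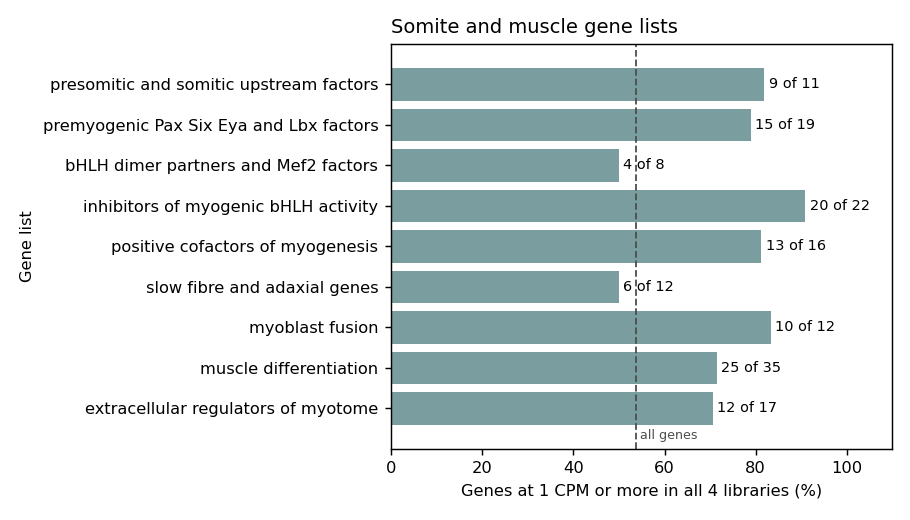
Bars give the percentage of genes of each somite and muscle list at 1 CPM or more in all 4 libraries, with the counts beside them, and the dashed line the 53.7% of all genes of the table. The bar of the inhibitors, 20 of 22, is the longest, and the bars of the dimer partners and of the slow fibre genes, 4 of 8 and 6 of 12, end just short of the line.

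Whole embryo bodies hold many cell types, and the markers of the others were present too. Of the neural markers 13 of 14 were expressed, of the blood and vessel markers 10 of 10, of the epidermal markers 7 of 7, of the notochord markers 6 of 7, of the cardiac markers 6 of 10 and of the endoderm markers 4 of 6. The cardiac and endoderm counts, 60% and 66.7%, lie near the 53.7% of all genes. Libraries 1 and 3 lay below libraries 2 and 4, as for *myf5*, in the summed CPM of 4 of these 6 lists. The neural sum was 399, 511, 367 and 516 CPM in libraries 1 to 4, the epidermal sum 489, 664, 498 and 613 CPM, the blood and vessel sum 168, 210, 127 and 186 CPM and the endoderm sum 44.5, 58.9, 42.9 and 53.7 CPM. The reverse order, as for *myf6*, held for the cardiac sum with 427, 242, 452 and 285 CPM and for the notochord sum with 269.7, 196, 275 and 247 CPM. Not all genes of a list followed its sum. With at least 10 counts in every library, the *myf5* order and its reverse held for 1 and 2 of 7 epidermal markers. They held for 9 and 1 of 14 neural, 4 and 2 of 10 blood and vessel and 3 and 1 of 4 endoderm markers. For 7 cardiac markers these numbers were 2 and 3, and for 7 notochord markers 2 and 4. Of all such genes, 27.9% and 21.8% had these orders. The 2 notochord genes in the *myf5* order, against their list's sum, were *tbxta* (LOC107395189) and *foxa2*. The 1 epidermal gene was *epcam*, with 245, 510, 187 and 352 CPM. The cardiac sum is mostly *myl7*, with 204 to 400 CPM, while *hand2* (LOC107373326) was at 0 in library 1 and *nppa* at 0 in library 4. The endoderm gene *sox32* was at 0 in library 1, and *foxa1* in libraries 1, 3 and 4. The part of these other tissues in the differences between libraries was not tested.

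For each factor, the genes with the most similar profile over the 4 libraries were looked up among 10690 or 10691 genes with at least 100 counts in every library. Likeness was measured as the root mean square difference in centred log2 CPM. For *myf5* these were *tnnt2c* (LOC107386692), *tsfm* and *ciapin1*, at 0.020 to 0.026. For *myod1* they were *supt3h*, *mthfd2* and *tspan9b* (LOC107382520), at 0.0073 to 0.018. For *myog* they were *tnfaip2*, *ilrun* (LOC107385018) and *gnb1b* (LOC107385217), at 0.011 to 0.015. For *myf6* they were *camkk2*, LOC107393355 and *efcab1*, at 0.033 to 0.039. With 4 libraries many genes can share a profile, and 182, 235 and 456 genes lay within 0.1 of *myf5*, *myod1* and *myog*. Only 19 lay within 0.1 of *myf6*. Counting alone gives *myf6* a CV of 13.3%, so which genes lie nearest to it is uncertain.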

How the data were processed

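The authors deposited read counts per gene, as whole numbers without normalization. According to the submitters' processing notes and the study's methods, reads were trimmed with Trim Galore 0.4.5, aligned to the African turquoise killifish genome with STAR 2.7.1a, restricted with SAMtools 1.5 to reads aligning to a single locus and counted with featureCounts of Subread 2.0.1. Genes with a near-identical copy thus lose the reads that both could give. The study names Nfu_20140520 as its turquoise killifish reference genome. The strand setting is not given in the sources used here.

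Columns were matched to samples by name. CPM, ratios, shares, exact intervals and tests came from scripts in Python 3.11.15 using scipy 1.17.1, numpy 2.4.6 and pandas 2.3.3, and plots from matplotlib 3.10.9. edgeR 4.0.16 and DESeq2 1.42.0 in R 4.3.3 were used for scaling factors only. The CV and the nearest profiles were tested on simulated counts with counting noise only, for genes with at least 100 counts in every library. The sign-flip test was tested on fixed values. Low counts such as those of *myf6*, and spread beyond counting noise, were not simulated. The planned ratio per length was not computed, because no transcript or coding lengths were at hand, and count ratios stand in its place.

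Symbols come from the table for 10533 genes. Of 14589 genes with a LOC number only, 10480 were found and 5257 named in the RefSeq table of the NfurGRZ-RIMD1 assembly, which was used for names and neighbours only. The 4 factors carry their symbols in the table. Of each list, the 3 genes with the highest and the 1 with the lowest mean CPM are named, up to 30 genes, of which 3 are not reported here, together with the 3 nearest profiles of each factor. *shh*, *myl7*, *hand2*, *nppa*, *sox32*, *foxa1*, *tbxta*, *foxa2*, *epcam*, *lbx2*, *lbx1b*, *id2*, *en1b*, *acta1*, *ckm*, *smpx*, *chrna1*, *chrng*, *chrnb1*, *chrnd*, *pvalb* and *atp2a1* were chosen after their values were seen. The factors and lists were chosen with earlier results of these data known. Alternatives covered library scaling, added counts, the limit for expression and leaving out each library.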

Additional observations from a re-analysis of the deposited data

Results flagged for a closer look

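Of 29 groups of 4 values screened with Dixon's test, over the factors' CPM, shares and ratios and the summed gene lists, 2 had one value far from the rest, and chance alone flags about 1 in 20. *myog* had 16.8 CPM in library 3, against 21.4 to 21.7 CPM in the other 3 libraries. In a further screen chosen after seeing the data, library 3 no longer passed the limit with TMM-scaled totals (18.4 against 20.2 to 21.6 CPM) or DESeq2 size factors (18.4 against 20.7 to 21.6 CPM), but did without the 10 most abundant genes (17.96 against 22.9 to 23.4 CPM). The summed dimer partners and Mef2 factors had 29.7 CPM in library 2, against 56.7 to 58.5 CPM in the others, a sum mostly made of *tcf3b*.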

How the results depend on the processing

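The CV of *myog*, 11.8% on table totals, was 6.90% with TMM-scaled totals and 6.86% with DESeq2 size factors, both of which raise its level in library 3. Of the 85 alternative values for the factors' levels, ratios, order and CV and for the expressed genes of all lists together, the other 83 stayed within the spread between libraries, kept their sign or stayed within 1.5 times. Within that last limit, the expressed genes of all lists together still fell from 114 of 152 at 1 CPM to 77 at 5 CPM. The 83 include values with 1 library left out, and some of these had to pass. Dropping 1 of 4 values cannot move a mean by as much as their SD. A mean log2 ratio with the same sign in all 4 libraries cannot lose that sign. For the levels and these ratios, only the other settings could have failed, so the 83 is not a measure of robustness. Leaving out each library in turn gave means of 72.1 to 85.0 CPM for *myf5*, 22.7 to 28.4 for *myod1*, 20.0 to 21.6 for *myog* and 1.51 to 1.99 for *myf6*, and a log2 *myod1*/*myog* count ratio of 0.16 to 0.38. At 5 CPM in every library, 9 of 19 premyogenic genes, 1 of 8 dimer partners and Mef2 genes and 3 of 12 fusion genes were expressed. The share of all genes at that limit was not computed, so these lists cannot be set against it. At 10 counts in every library, 10 of 12 slow fibre genes were expressed, beside 16034 of the 25122 genes of the table. The correction for length was not run. No paired analysis was possible because the factors were read in a single group of libraries. Precision is limited for *myf6*, with 35 to 68 counts per library, and by the number of libraries, since 4 cannot give a sign-flip p below 0.125.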
